A study of Mus musculus with 32 samples.

Results

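The endothelin and kinin system was followed in mouse kidney through 7 genes: Edn1, Ednra, Ednrb, Ece1, Bdkrb1, Bdkrb2 and Klk1, out of 54532 genes in the count table. They were taken by name, as a ligand, its processing enzyme, the receptors of both peptide systems and a kallikrein. The group was chosen by the rise of Ednrb over the days after cisplatin in these same libraries, so that rise is given below as a description without a test. RNA-seq of whole kidney was made from 32 wild-type C57BL/6 mice, 6 to 8 weeks old, with 4 males and 4 females, 1 library each, on each of Days 0, 2, 3 and 5. The treated mice of both sexes had received a single intraperitoneal dose of 20 mg/kg cisplatin, a platinum drug that injures the proximal tubule, whereas the Day 0 mice are healthy mice in the results text of the study. The sample labels give cisplatin as the treatment of the female Day 0 mice and none for the male Day 0 mice, and the text of the study was followed here. There was no vehicle group at the later days, so drug, time and injury cannot be told apart.

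Endothelin-1, the product of Edn1, is made as a precursor that is cut to the active peptide by the membrane protease ECE1. It acts on the receptor ETA (Ednra), best known for contraction of smooth muscle, and on ETB (Ednrb), found on endothelial cells, where it drives nitric oxide release and clears the ligand, and on collecting duct cells, where it restrains sodium uptake. Kinins are released from kininogens by kallikreins, of which tissue kallikrein (Klk1) is made by the connecting tubule, and they act on the B2 receptor (Bdkrb2), present at rest, and on the B1 receptor (Bdkrb1), known as inducible by injury.

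Each library held between 16502107 and 35961325 counts. Several libraries stood apart from their group. The library labelled male Day 5 mouse 1 held 4153 Xist counts beside 387 counts of 4 Y-linked genes, and so went against its label. Of the other males, Day 0 mice 1 to 4 held 50, 7, 0 and 242 Xist counts and Day 5 mice 2 to 4 held 260, 89 and 59. The males of Days 2 and 3 held 0 to 5. Of the females, Day 0 mice 1, 3 and 4 held 221, 44 and 66 Y-linked counts and mouse 2 held 5, while the females of the later days held 0. Mitochondrial transcripts made up 42.5%, 78.9%, 79.8% and 79.7% of the libraries labelled male Day 5 mice 1 to 4 and 31.6% and 77.9% of female Day 5 mice 1 and 2, against at most 24.0% in the 24 libraries of the other days. Male Day 0 mouse 3 and female Day 0 mouse 3 had the fewest genes with a count in their groups (17985 and 16265). Female Day 0 mouse 2 had 212 CPM of Kng1 and 67.2 CPM of F12, genes known from the liver. Levels below are CPM, counts scaled to the library size after TMM normalisation, which sets libraries to a common scale over most genes. Fold changes were fitted with edgeR (quasi-likelihood), p-values were adjusted over all genes tested (Benjamini-Hochberg), and a gene was called at an adjusted p under 0.05. In whole kidney, fewer cells of a type and less RNA per cell cannot be told apart.

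The sequences before the RefSeq start of the 4 genes with the differences described below are shown first, to place them on the genome. Each is the 250 bases before the RefSeq start of the gene (GRCm38.p6), 5′ to 3′ on the strand of the gene, at chr14:103843702-103843951 (minus strand) for Ednrb, chr13:42301226-42301475 (plus) for Edn1, chr12:105562922-105563171 (plus) for Bdkrb2 and chr7:44225110-44225359 (plus) for Klk1. The RefSeq start of Ednrb lies 701 bases inside the gene as the count table places it, so its window is within that gene span. Capitals mark the letters that matched a searched motif.
Ednrb: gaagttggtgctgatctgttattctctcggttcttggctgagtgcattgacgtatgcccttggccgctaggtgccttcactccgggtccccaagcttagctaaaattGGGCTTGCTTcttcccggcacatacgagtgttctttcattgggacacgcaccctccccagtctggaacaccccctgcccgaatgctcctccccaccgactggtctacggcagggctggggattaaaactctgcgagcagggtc
Edn1: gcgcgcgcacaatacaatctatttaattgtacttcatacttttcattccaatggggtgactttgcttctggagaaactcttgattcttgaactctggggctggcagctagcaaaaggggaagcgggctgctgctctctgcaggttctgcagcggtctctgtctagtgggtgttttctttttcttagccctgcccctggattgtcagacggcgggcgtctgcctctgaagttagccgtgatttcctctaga
Bdkrb2: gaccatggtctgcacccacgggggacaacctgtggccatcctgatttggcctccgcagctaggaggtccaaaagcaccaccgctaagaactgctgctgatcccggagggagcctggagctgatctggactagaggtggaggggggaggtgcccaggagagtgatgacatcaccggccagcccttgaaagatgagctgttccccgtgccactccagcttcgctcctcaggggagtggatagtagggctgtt
Klk1: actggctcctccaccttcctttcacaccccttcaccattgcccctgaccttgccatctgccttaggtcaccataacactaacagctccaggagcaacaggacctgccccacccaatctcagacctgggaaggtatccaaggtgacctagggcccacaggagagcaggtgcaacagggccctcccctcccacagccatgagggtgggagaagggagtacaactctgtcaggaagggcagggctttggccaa
The motifs searched on both strands were TATAAA, the AP-1 site TGAGTCA or TGACTCA, the HIF core ACGTG, the GC box GGGCGG, the GATA sites AGATAA and TGATAA, and the p53 half-site and NF-kB site by their consensus. Among these 4 windows and those of Ednra and Ece1, a single match was found. It was a p53 half-site in the Ednrb window, GGGCTTGCTT, 143 to 134 bases before the start, a motif present in 7.13% of 32851 promoter windows of the same length. The TATA box was present in 12.4% of windows, the AP-1 site in 4.46%, the HIF core in 16.6%, the GC box in 32.7%, the GATA sites in 16.6% and the NF-kB site in 3.90%. A match of letters is a description and not a bound site.

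The 7 genes spanned more than 3 orders of magnitude on the deposited FPKM scale, which divides by gene length. In male Day 0 mice the mean was 1532 FPKM for Klk1, 10.9 for Ece1, 2.49 for Ednrb, 0.733 for Edn1 and 0.482 for Ednra, and the ranges of these neighbours did not overlap. Bdkrb1 (0.121 FPKM) and Bdkrb2 (0.0669 FPKM) came last, and neither could be told apart from its neighbour. Klk1, Ece1 and Ednrb kept these first 3 places by mean in all 8 groups. In male Day 5 mice the range of Ednrb (3.32 to 7.45 FPKM) overlapped that of Edn1 (0.948 to 3.85). Below them the order changed by group, and in male Day 5 mice the means were 2.24 FPKM for Edn1, 0.879 for Bdkrb2 and 0.494 for Ednra, with overlapping ranges.

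**Figure D1:**
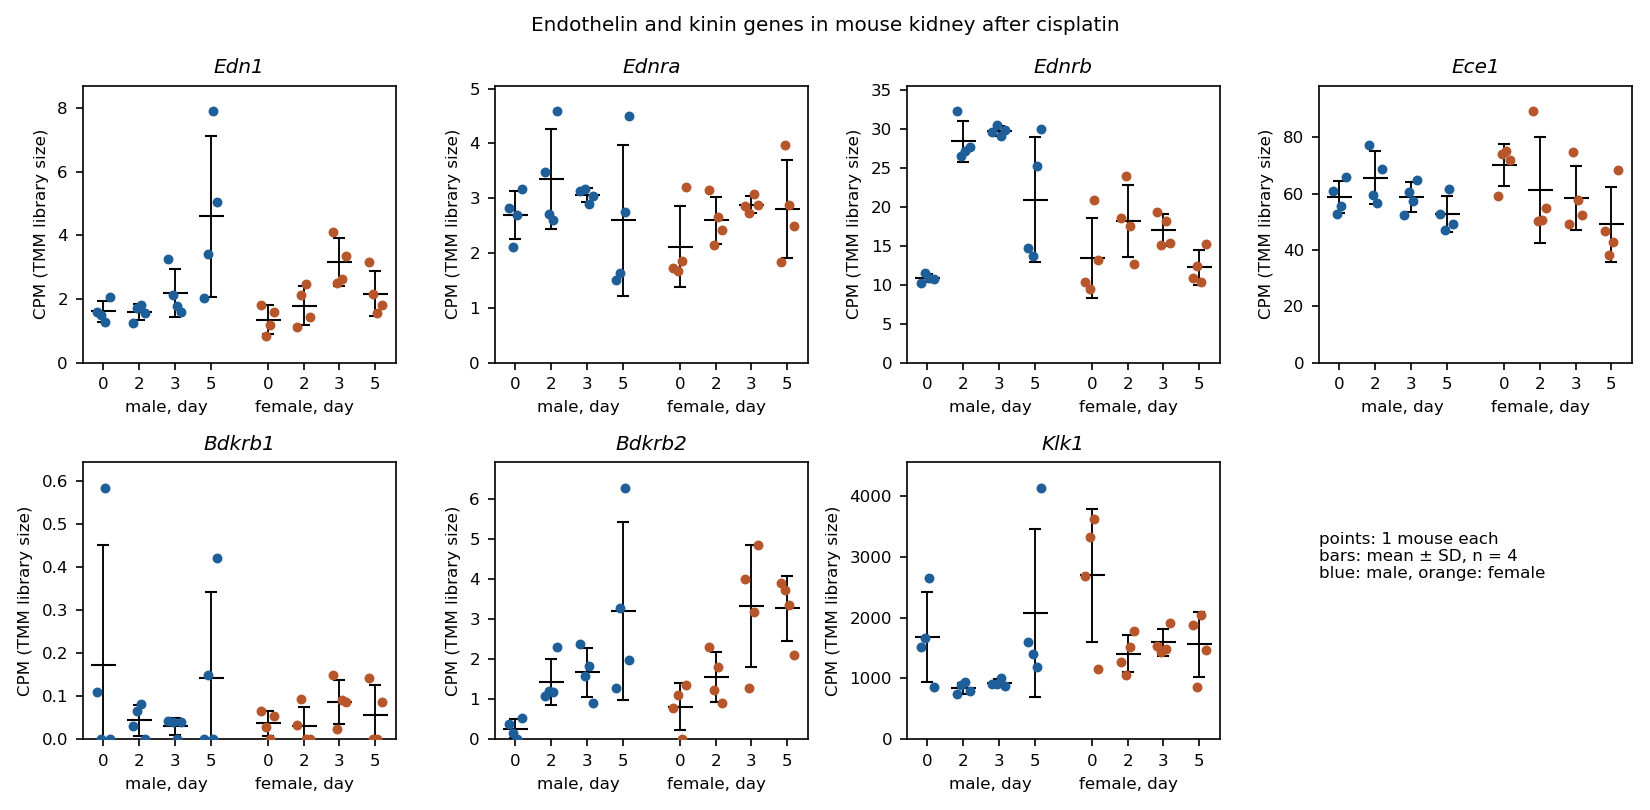
CPM of the 7 genes (y axis, linear from 0) by day for male (blue) and female (orange) mice; points are single mice, bars the mean ± SD of 4 mice. Ednrb in males lay at 10.26 to 11.50 at Day 0 and at 26.48 to 32.31 at Day 2, while in females the Day 0 mice (9.49 to 20.87) overlapped every later day.

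Edn1, which encodes the precursor of endothelin-1, lies on chromosome 13 (42301476 to 42307990, 5 exons). It had few reads, between 18 and 166 counts per library. In male mice 1 to 4 it was at 1.57, 1.50, 1.28 and 2.07 CPM at Day 0 and at 1.23, 1.72, 1.81 and 1.55 at Day 2. At Day 3 these males had 3.25, 2.12, 1.79 and 1.59 CPM, and at Day 5 they had 2.01, 3.42, 7.90 and 5.05. Day 2 males overlapped the Day 0 males, with mouse 1 just below the lowest of them, and at Day 5 all but mouse 1 stood above every Day 0 mouse. The log2 fold change against Day 0 was -0.01 at Day 2 (SE 0.32, adjusted p = 0.982), 0.45 at Day 3 (adjusted p = 0.313) and 1.57 at Day 5 (SE 0.465, adjusted p = 0.0421), a 2.97-fold rise by edgeR. Summed cell type markers also differed at Day 5: 1003 to 1680 CPM against 469.6 to 1016 at Day 0 for collecting duct principal cells, 31.6 to 161 against 0.730 to 17.6 for adrenal cortex, and 567.6 to 4933 against 8647 to 11182 for proximal tubule. Their part in the Edn1 change was not tested. The Day 5 call was lost in 6 of 8 fits that each left out 1 mouse, with an adjusted p of up to 0.139 without male Day 5 mouse 3, and without the library labelled male Day 5 mouse 1 the change was 1.84 (adjusted p = 0.0124). The levels also depended on the total used for scaling. In CPM of all counts, without TMM, Edn1 was at 1.83, 1.12, 2.62 and 1.55 in the Day 5 males and at 1.76, 1.66, 1.14 and 2.07 in the Day 0 males, which overlap. In CPM of the non-mitochondrial counts the Day 5 males were at 3.18, 5.30, 12.96 and 7.62 and the Day 0 males at 1.95, 1.85, 1.22 and 2.73, which do not overlap.

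In female mice Edn1 was at 1.82, 0.82, 1.18 and 1.59 CPM at Day 0 and at 1.11, 2.13, 2.46 and 1.44 at Day 2. It reached 4.12, 2.50, 2.63 and 3.36 CPM at Day 3 and was at 3.15, 2.17, 1.54 and 1.80 at Day 5. Every Day 3 female exceeded every Day 0 and Day 2 female. Groups that did not overlap in this direction were found for 10.1% of all genes between Day 3 and Day 0 and for 1.63% between Day 3 and Day 2. In CPM of all counts, without TMM, Day 3 mouse 2 (3.32) lay just below Day 2 mouse 3 (3.38), so these days overlapped. The log2 fold change at Day 3 against Day 0 was 1.20 (SE 0.344, edgeR adjusted p = 0.0619), short of the threshold. It was called without female Day 0 mouse 4 (1.29, adjusted p = 0.0257), and by DESeq2 (adjusted p = 0.00642) and limma voom (adjusted p = 0.0337).

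Ednra, the receptor of vascular smooth muscle, ranged from 1.51 to 4.59 CPM over the 32 libraries, and no group stood clear of its Day 0 group. Its log2 fold changes against Day 0 lay between -0.00 and 0.43, with standard errors up to 0.433, and none was called. Ece1, the converting enzyme, ranged between 38.38 and 89.32 CPM. Its changes against Day 0 ranged from -0.52 in Day 5 females (SE 0.216, edgeR adjusted p = 0.287) to 0.17 in Day 2 males (SE 0.147, adjusted p = 0.465). By edgeR neither gene had a change against Day 0 that could be detected with 4 mice in a group, while limma voom called Ednra higher in Day 3 females (0.72, adjusted p = 0.0185).

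Ednrb, the receptor ETB, lies on chromosome 14 (103814625 to 103844402, minus strand, 8 exons). In male mice 1 to 4 it was at 10.26, 11.50, 10.88 and 10.76 CPM at Day 0, at 32.31, 26.48, 27.19 and 27.75 at Day 2, at 29.62, 30.54, 29.06 and 29.94 at Day 3, and at 14.77, 13.67, 25.30 and 30.04 at Day 5. The males of all 3 later days stood above the Day 0 males, by 2.64-fold at Day 2, 2.74-fold at Day 3 and 2.02-fold at Day 5. Such a gap in the same direction was found for 12.3%, 20.9% and 11.2% of all genes on these days. The 4 Day 3 males differed little among themselves, while the Day 5 males fell into a lower and a higher pair. In CPM of all counts, without TMM, the Day 5 males were at 13.4, 4.47, 8.40 and 9.20 and the Day 0 males at 11.5, 12.7, 9.69 and 10.8, so that mouse 1 alone stood above Day 0 and the other 3 stood below it. In CPM of the non-mitochondrial counts the Day 5 males were at 23.3, 21.2, 41.5 and 45.3 and the Day 0 males at 12.7, 14.2, 10.4 and 14.2, without overlap.

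In female mice Ednrb was at 10.32, 9.49, 20.87 and 13.14 CPM at Day 0, at 18.63, 23.99, 17.59 and 12.63 at Day 2, at 19.34, 15.12, 18.17 and 15.42 at Day 3, and at 10.90, 12.39, 10.36 and 15.27 at Day 5. The later days overlapped Day 0, in which mouse 3, the library with the fewest genes detected, was the highest. Without it, Days 2 and 5 still overlapped the other Day 0 females, and Day 3 stood above them. The log2 fold change against Day 0 was 0.44 (SE 0.301) at Day 2, 0.33 (SE 0.258) at Day 3 and -0.13 (SE 0.289) at Day 5, and without female Day 0 mouse 3 the first became 0.75, the second 0.62 and the last 0.16. The male change exceeded the female change by 0.93, 1.10 and 1.13 on the log2 scale at Days 2, 3 and 5, given as a description, since the rise in both sexes was what drew attention to the gene. By limma voom these differences were 0.49, 0.67 and 0.60.

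The values compared between the sexes are among those in which the rise was noted, so this difference is a description as well. At Day 3 Ednrb stood at 29.8 ± 0.618 CPM against 17.0 ± 2.07 in females (SD, n = 4 each), a log2 difference of 0.78 (SE 0.0891). Every Day 3 male exceeded every Day 3 female, as for 14.8% of all genes in this direction. At Day 2 the groups did not overlap either, as for 5.27% of all genes in this direction, with a difference of 0.63. The difference was -0.33 at Day 0, or -0.03 without female Day 0 mouse 3, and 0.83 at Day 5, the latter 1.03 without the library labelled male Day 5 mouse 1.

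The balance of the 2 endothelin receptors was given by the ratio of their FPKM values. In males, Ednrb was 4.67, 7.03, 5.17 and 4.36 times Ednra at Day 0 and 12.2, 12.4, 12.9 and 12.7 times at Day 3. The Day 2 males had ratios of 11.9, 12.5, 13.4 and 7.76, and the Day 5 males 12.6, 10.7, 11.9 and 8.58. In females the ratio was 7.70, 7.26, 14.4 and 5.25 at Day 0 and 8.71, 7.12, 7.57 and 6.88 at Day 3. At Day 5 it was 7.60, 4.01, 4.61 and 7.88 in females, so the female groups overlapped. These ratios carry the Ednrb rise itself and are a description.

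The summed level of 10 endothelial markers stood above Day 0 in males at Days 2 and 3, while in females the ranges overlapped Day 0. It was 459.1 to 580.8 CPM in Day 0 males, 676.6 to 967.4 at Day 2 and 694.4 to 755.9 at Day 3, with 2 of 10 markers called higher on either day (Tek and Flt1), beside 1.81% and 11.4% of all genes. In females the sum was 459.5 to 600.2 CPM at Day 0 (median 582.6), 476.1 to 961.2 at Day 2 (median 515.6) and 482.9 to 641.4 at Day 3 (median 526.3). Between the sexes, 7 of 10 markers were called higher in Day 3 males than in Day 3 females (10.6% of all genes), with a median log2 difference of 0.43 against -0.02 over all genes. The part of these markers in the Ednrb difference was not tested. Per 100 CPM of the markers, Ednrb stood at 1.83 to 2.37 CPM in Day 0 males, 2.87 to 4.16 at Day 2 and 3.92 to 4.31 at Day 3, a ratio that carries the Ednrb rise itself and is a description. At Day 5 the male marker sum was 498.5 to 1311 CPM and Ednrb stood at 1.71 to 3.20 CPM per 100 CPM of markers, and both overlapped Day 0. In the females this value was 1.65 to 4.54 at Day 0 and 2.36 to 4.004 at Day 3, and without female Day 0 mouse 3 the Day 0 values ended at 2.23, below Day 3. The proximal tubule list had 4 of 6 markers called higher in Day 3 males than in Day 3 females. Of 6 principal cell markers of the collecting duct, 5 were tested and 5 were called lower in these males, beside 10.7% of all genes.

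**Figure D2:**
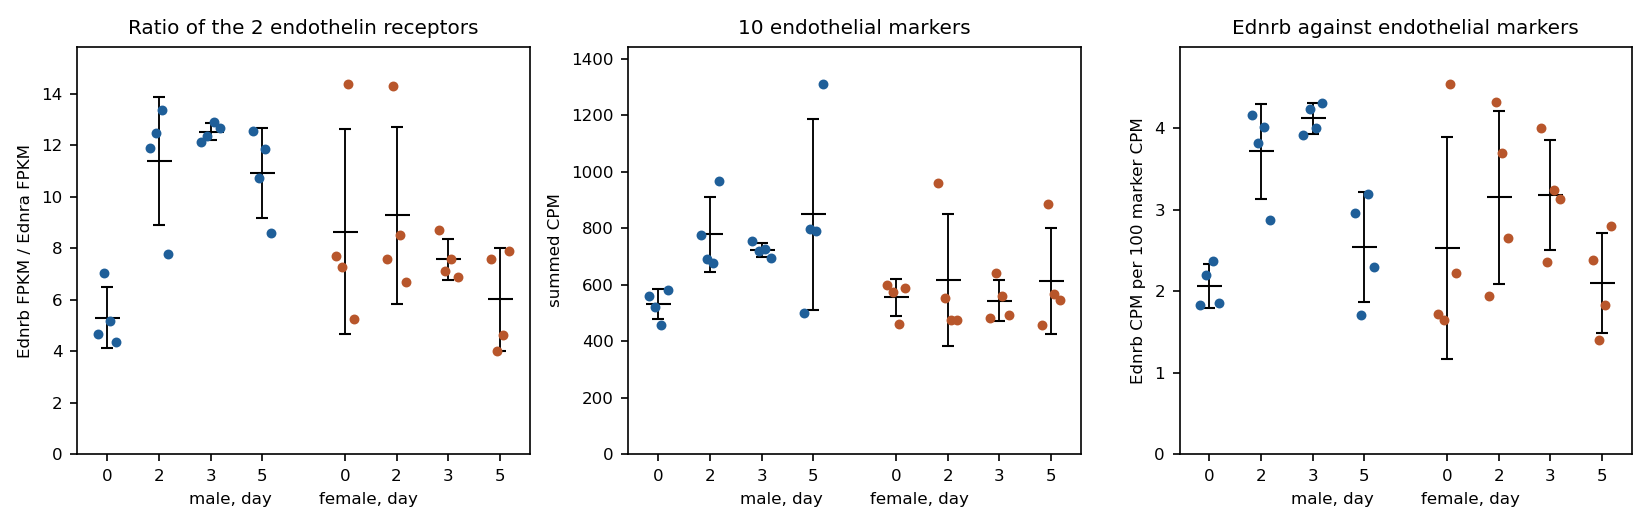
Ratio of Ednrb to Ednra FPKM (left), summed CPM of 10 endothelial markers (middle) and Ednrb CPM per 100 CPM of those markers (right) by day; points are single mice, bars the mean ± SD of 4 mice, blue male and orange female. Day 3 males have a ratio of 12.2 to 12.9 and 3.92 to 4.31 CPM of Ednrb per 100 marker CPM, both above all Day 0 males.

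Bdkrb2, the B2 kinin receptor, lies on chromosome 12 (105563226 to 105595237, 3 exons), just upstream of Bdkrb1. In Day 0 males it had 7, 3, 0 and 9 counts, or 0.38, 0.15, 0.00 and 0.52 CPM. Male mice 1 to 4 had 1.08, 1.20, 1.16 and 2.29 CPM at Day 2, 2.38, 1.58, 1.82 and 0.89 at Day 3, and 1.29, 3.27, 6.29 and 1.97 at Day 5. All 12 later males stood above the 4 Day 0 males. Such a gap in the same direction was found for 12.3% of all genes at Day 2, 20.9% at Day 3 and 11.2% at Day 5. The log2 fold change was 2.51 at Day 2 (SE 0.816, edgeR adjusted p = 0.0912), 2.72 at Day 3 (SE 0.798, adjusted p = 0.0400) and 3.69 at Day 5 (SE 0.935, adjusted p = 0.0265). The Day 0 level rests on at most 9 counts in a library, so the size of these folds is poorly fixed. Bdkrb2 passed the count filter only through the later days, where it is higher, so its calls are read as a description. It lost its call in 6 of 8 fits without 1 mouse at Day 3 and in 5 of 8 at Day 5. With no count filter the Day 3 call was lost (edgeR adjusted p = 0.0541) and the Day 5 call held. With at least 10 counts in every library it was not tested. In CPM of all counts, without TMM, the Day 5 males were at 1.17, 1.07, 2.09 and 0.602, still above the Day 0 males, whose highest value was 0.519. Without male Day 0 mouse 3, which had no count, the Day 2 change was called (2.03, adjusted p = 0.0318).

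Female Bdkrb2 was at 0.78, 1.10, 0.00 and 1.35 CPM at Day 0, at 2.31, 1.22, 1.81 and 0.90 at Day 2, at 3.99, 1.27, 3.17 and 4.84 at Day 3, and at 3.89, 3.73, 3.36 and 2.10 at Day 5. The Day 5 females did not overlap the Day 0 females, as for 4.97% of genes in this direction, while Days 2 and 3 did. The log2 fold change was 0.92 at Day 2 (edgeR adjusted p = 0.476), 1.99 at Day 3 (SE 0.819, adjusted p = 0.139) and 1.99 at Day 5 (SE 0.813, adjusted p = 0.281), none of them called by edgeR. The Day 2 value was 0.55 without female Day 0 mouse 3. Day 3 was called by DESeq2 (adjusted p = 0.0419), voom (adjusted p = 0.0241) and 1 edgeR fit over all 8 groups (adjusted p = 0.0268), and Day 5 by voom (adjusted p = 0.0250) and that fit (adjusted p = 0.0499). The change did not differ detectably between the sexes, with an interaction of 1.55 (SE 1.21) at Day 2, 0.70 (SE 1.18) at Day 3 and 1.68 (SE 1.27) at Day 5, errors that would leave a large difference unseen.

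Bdkrb1, the inducible B1 receptor, was near the limit of detection. It had no count in 11 libraries and 3 counts or fewer in 27 of 32. The 16 counts of male Day 0 mouse 3 were the most in any library. It passed the filter on low counts in no comparison, and a change after cisplatin was not detectable at this depth.

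Klk1, tissue kallikrein, lies on chromosome 7 (44225360 to 44229618, 5 exons) and was by far the most abundant of the 7 genes. In male mice 1 to 4 it was at 1517, 1669, 2658 and 858 CPM at Day 0, at 739, 892, 934 and 789 at Day 2, at 910, 900, 1012 and 874 at Day 3, and at 1601, 1397, 1185 and 4142 at Day 5. In females it was at 2685, 3324, 3623 and 1154 CPM at Day 0, at 1277, 1059, 1519 and 1779 at Day 2, at 1539, 1438, 1478 and 1910 at Day 3, and at 1875, 857, 2052 and 1461 at Day 5. In either sex Day 0 mouse 4 was low, within the range of the Day 2 mice, and the other 3 Day 0 mice stood above every Day 2 and Day 3 mouse of their sex. Mouse 4 also had the highest mitochondrial share of its Day 0 group, at 24.0% in males and 19.7% in females. The log2 fold change was -0.99 (SE 0.314, edgeR adjusted p = 0.0868) at Day 2 and -0.86 (adjusted p = 0.0686) at Day 3 in males, and -0.94 (adjusted p = 0.168) and -0.77 (adjusted p = 0.168) in females. All 4 were called without Day 0 mouse 4 of that sex, at -1.20 (adjusted p = 0.0268) and -1.08 (adjusted p = 0.0115) in males, and at -1.19 (adjusted p = 0.0145) and -1.02 (adjusted p = 0.00544) in females. Without Day 0 mouse 3, which had the most Klk1 of the Day 0 mice of either sex, none of the 4 was called by edgeR, at -0.69 (adjusted p = 0.0733) and -0.54 (adjusted p = 0.0616) in males and at -0.74 (adjusted p = 0.295) and -0.60 (adjusted p = 0.272) in females. With all mice, voom called all 4 and DESeq2 both of the male changes.

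Males had less Klk1 than females at Day 3, at 924 ± 60.7 CPM against 1591 ± 217 (SD, n = 4 each), a log2 difference of -0.81 (SE 0.109, edgeR adjusted p = 0.00146). No male of that day reached the lowest female. The call held in all 8 fits without 1 mouse and was lost in 1 fit over all 8 groups (adjusted p = 0.459). At Day 2 the sexes did not overlap either, with a difference of -0.76 (SE 0.204) that was not called by edgeR (adjusted p = 0.106) and was called by DESeq2 (adjusted p = 0.00317) and voom (adjusted p = 0.0118). The male level was higher at Day 5 than at Day 3 by 1.27 on the log2 scale (SE 0.402, adjusted p = 0.0344), without overlap, as for 16.3% of genes in this direction. The call was lost without any 1 of the 4 Day 3 males (adjusted p up to 0.0863). The difference was 0.67 without male Day 5 mouse 4 (edgeR adjusted p = 0.0453). In CPM of all counts, without TMM, the Day 5 males had 1452, 457, 393 and 1268 CPM of Klk1 against 1078 to 1281 at Day 3. In CPM of the non-mitochondrial counts they had 2525, 2166, 1944 and 6247 against 1233 to 1455, again without overlap. So the higher level at Day 5 was lost on the total with the mitochondrial counts and kept on that without them.

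Of 4 connecting tubule markers, 2 were called lower in Day 3 males than in Day 0 males, beside 13.1% of all genes, and 2 were called lower in Day 3 males than in Day 3 females, beside 10.7%. The sum of the 4 markers was 692.2 to 1940 CPM in Day 0 males, 306.8 to 403.5 at Day 2, 228.5 to 294.1 at Day 3 and 935.1 to 1910 at Day 5, and in Day 3 females it was 504.0 to 707.4. Calb1 and S100g, calcium-binding proteins of that segment, were the 2 called in both comparisons (log2 differences of -1.41 and -1.30 between the sexes), while Slc8a1 and Trpv5 were not called. Their part in the Klk1 differences was not tested. Erythroid genes were high in the Day 0 groups as well, with sums of 434.1 to 2150 CPM in Day 0 males and 0.849 to 2.25 in Day 3 males.

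**Figure D3:**
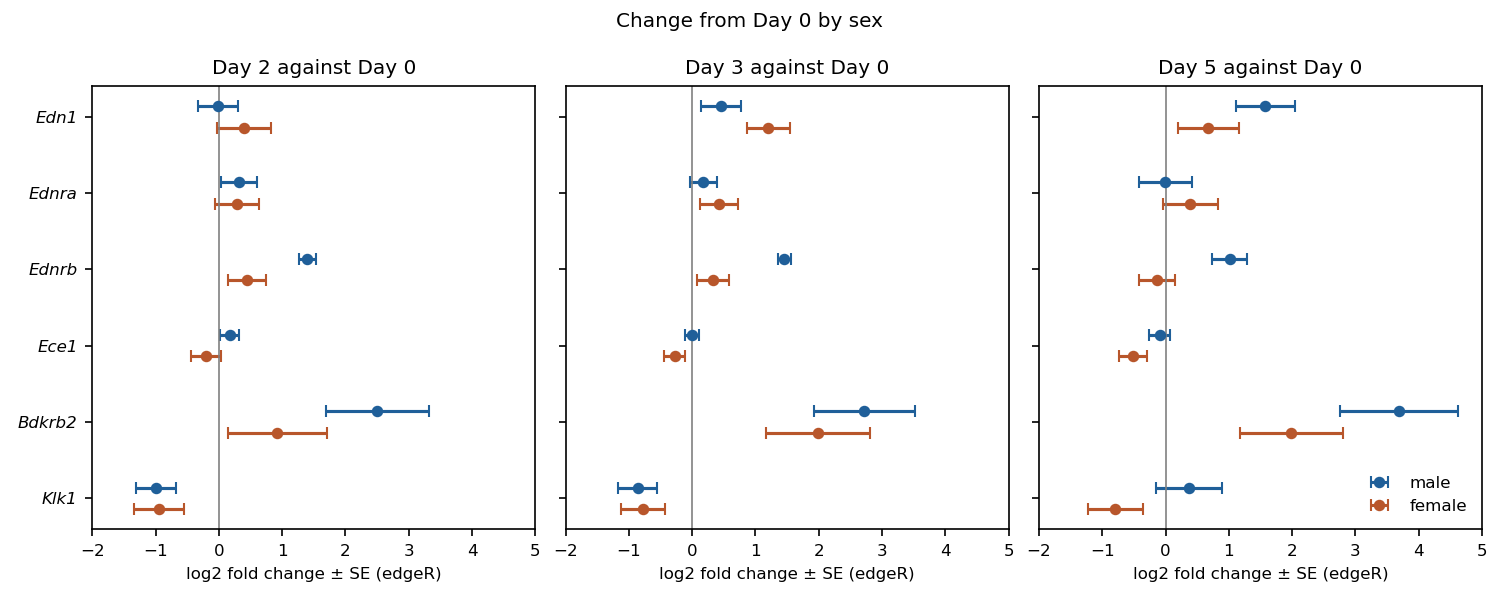
Log2 fold change ± SE (edgeR) against Day 0 of 6 genes at Day 2, Day 3 and Day 5 in male (blue) and female (orange) mice, 4 mice per group. Bdkrb2 has the largest values, from 0.92 to 3.69, with wide errors, and Ednrb separates the sexes; Ednrb is drawn as a description.

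Counted over the 5 tested genes other than Ednrb, few changes against Day 0 passed the threshold. In males 0 of 5 were called at Day 2 (3.16% of all genes), 1 of 5 at Day 3 (24.5% of all genes) and 2 of 5 at Day 5 (19.2% of all genes), which were Bdkrb2 and then Bdkrb2 with Edn1. Bdkrb2 entered these male tests only through the later days, where it is higher. In females edgeR called 0 of 5 at each day, against 1.93%, 5.54% and 0.258% of all genes at Days 2, 3 and 5. At an unadjusted p under 0.05 there were 2 of the 5 genes in Day 2 males, and 1, 2 and 2 in Day 2, Day 3 and Day 5 females. Over all genes tested, 4654 of 16051 were under it in Day 2 males. In females they were 4189 of 16541 at Day 2, 5247 of 17065 at Day 3 and 2548 of 16260 at Day 5. Of the 5 genes, DESeq2 called 2 in Day 2 males and 0, 2 and 0 in the females, and limma voom 2 and then 1, 4 and 1.

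From Day 2 to Day 3, 0 of 5 genes were called by edgeR, DESeq2 or voom in males or females, as for 0% of all genes by edgeR. At an unadjusted p under 0.05 there were 0 of 5 in males, beside 1410 of 16232 genes, and 2 of 5 in females, beside 678 of 16974. From Day 3 to Day 5, 1 of 5 was called in males (Klk1), where 37.9% of all genes were, and 0 of 5 in females by any of these tools, where 0% of all genes were. In these females 0 of 5 had an unadjusted p under 0.05, beside 1973 of 16794 genes. Between the sexes 1 of these 5 was called at Day 3 (Klk1, 21.3% of all genes), and it was without overlap on that day (25.7% of all genes) and at Day 2 (8.96% of all genes). EdgeR called 0 of 5 at Day 0 (0.449% of all genes), Day 2 (1.47%) and Day 5 (0.276%), with 0, 1 (Klk1) and 1 (Edn1) at an unadjusted p under 0.05. That unadjusted threshold was passed by 1289 of 16042, 2485 of 16608 and 3094 of 15237 genes on these days. DESeq2 called 0, 1 and 0 at these days and voom 1, 1 and 0, each time Klk1. At Day 3, DESeq2 also called Bdkrb2 (-1.01, adjusted p = 0.0485), and voom Bdkrb2 (-1.14, adjusted p = 0.0167) and Edn1 (-0.64, adjusted p = 0.0405), all lower in males. The change from Day 0 differed between the sexes for 0 of 5 genes at Days 2, 3 and 5, by each of the 3 tools and at an unadjusted p under 0.05, against 0%, 0.0114% and 0.243% of all genes by edgeR.

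Of 18 other genes of the endothelin and kinin pathways, 14 were tested between the sexes at Day 3, and 5 were called lower and 0 higher in males, beside 10.7% and 10.6% of all genes. All 5 calls were lost in 1 fit over all 8 groups, and that of Klkb1 also without male Day 3 mouse 2. These were Kng1 (log2 difference -3.38, SE 0.303, edgeR adjusted p = 0.000177) and Kng2 (-0.81, adjusted p = 0.00109), which encode the kininogens that kallikreins cut. The others were Klkb1, plasma kallikrein (-0.82, adjusted p = 0.0166), Cpn1, a kinin-degrading carboxypeptidase (-0.67, adjusted p = 0.00517), and Serpina3c, a serine protease inhibitor (-1.58, adjusted p = 0.00213). Kng1 was at 0.667, 0.347, 0.456 and 0.350 CPM in Day 3 males and at 5.58, 5.98, 3.98 and 2.99 in Day 3 females. The summed level of 6 adrenal cortex markers was 25.2 to 2047 CPM in those females and 3.76 to 61.9 in those males, ranges that overlap. Of the 5 tested, 0 were called by edgeR and 5 had an unadjusted p under 0.05, beside 6119 of 16673 genes. Their median log2 difference was -5.80 between males and females, and their part in these differences was not tested.

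**Figure D4:**
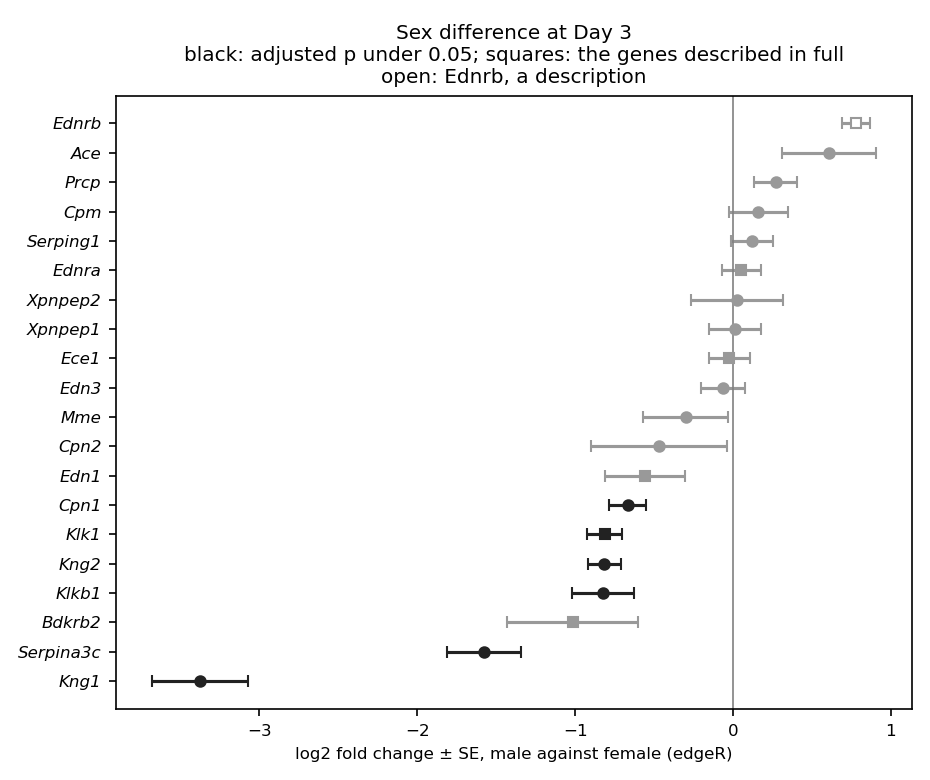
Log2 difference ± SE (edgeR) between Day 3 males and Day 3 females for 6 members (squares) and 14 further pathway genes (circles), with 4 mice per sex; black marks an adjusted p under 0.05. Ednrb (0.78, open square) is drawn as a description, and Kng1 lies furthest to the female side (-3.38).

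Against Day 0, other pathway genes were called in males and 0 were called in females, while the test of the difference between the sexes in these changes called 0 of them. Of 14 tested at Day 3, 1 was lower (Klkb1, -1.01, edgeR adjusted p = 0.0481) and 0 were higher, where 24.5% of all genes were called. The Klkb1 call was lost in 6 of 8 fits without 1 mouse, and with no count filter, in 1 fit over all 8 groups and with the replicate block. Of 12 tested at Day 5, Edn3, the gene of endothelin-3 (1.91, adjusted p = 0.0215), and Klkb1 (1.31, adjusted p = 0.0414) were higher, where 19.2% of all genes were called in either direction. Lower at that day were Ace, the kinin-degrading converting enzyme of the proximal tubule brush border (-2.41, adjusted p = 0.0140), and the peptidases Xpnpep1 (-1.20, adjusted p = 0.0320) and Prcp (-1.12, adjusted p = 0.0271). Edn3, Klkb1, Xpnpep1 and Prcp each lost the call in 5 of 8 fits without 1 mouse, Ace in 2 of 8, and Klkb1 also with no count filter. The higher values were not kept in CPM of all counts, mitochondrial ones included, without TMM. There Klkb1 was at 3.70, 1.80, 1.87 and 2.97 at Day 5 and at 1.94, 2.26, 2.83 and 3.46 at Day 0, and Edn3 at 9.79, 2.58, 3.16 and 4.77 and at 3.76, 4.42, 0.781 and 4.03, which overlap. Levels over the non-mitochondrial counts were not worked out for these genes. Ace was at 300, 304, 275 and 103 CPM in Day 0 males and at 90.4, 28.8, 31.3 and 27.4 in Day 5 males, which do not overlap. The summed level of 6 proximal tubule markers was 8647 to 11182 CPM in Day 0 males and 567.6 to 4933 in Day 5 males, and its part in these differences was not tested.

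Of 13 genes that couple the receptors to G proteins, phospholipase C and nitric oxide, all of them tested, 1 was higher and 1 lower in Day 3 males than at Day 0, where 24.5% of all genes were called. They were the G-protein subunits Gna13 (0.41, edgeR adjusted p = 0.0194) and Gna12 (-0.50, adjusted p = 0.0389). Without 1 mouse the Gna13 call was lost in 4 of 8 fits and that of Gna12 in 6 of 8. Both were lost with the replicate block, and Gna12 also with no count filter and in 1 fit over all 8 groups. In Day 5 males Gna12 was lower (-1.16, adjusted p = 0.0116) and Plcb4, a phospholipase C, was higher (1.58, adjusted p = 0.0130), beside 19.2% of all genes called, and both calls held in all 8 fits without 1 mouse. Without TMM, Plcb4 was at 10.7, 6.36, 6.58 and 7.27 CPM of all counts at Day 5 and at 7.70, 6.24, 3.81 and 9.51 at Day 0, which overlap. The list's median change was 0.12 at Day 3 and 0.26 at Day 5, beside 0.02 and 0.04 over all genes. Of 13 Klk1 paralogs, 8 were tested between the sexes at Day 3, and Klk1b5 was called lower in males (-1.27, adjusted p = 0.0234), beside 21.3% of all genes in either direction. That call was lost in 4 of 8 fits without 1 mouse and in 1 fit over all 8 groups. Their reads are few and these genes are close copies, and 5.09% of the 100-base windows of the Klk1 transcript occurred in 2 other genes, so a small part of their counts could be shared.

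The genes whose pattern over the 32 libraries was most like that of each member were found by Pearson's r of log2 CPM, as a description, since libraries of a group share their day and sex. Ednrb went most closely with Tek, the angiopoietin receptor of endothelial cells (r = 0.845), Srgap2 (0.837) and Itpripl2 (0.836). Bdkrb2 went with Map3k6 (0.931), Arpc1b (0.909) and Spred3 (0.906). Klk1 went with Nbdy (0.882), S100g (0.868) and Gcgr (0.857), and Edn1 with Cav2 (0.839), Ifrd1 (0.834) and Emp1 (0.818). Ece1 went with Tango6 (0.820), Nudcd3 (0.793) and Ephb1 (0.759), and Ednra with S1pr3 (0.696), Sh2b3 (0.682) and Col4a1 (0.676). Bdkrb1, with its few counts, went with Prmt6 (0.715), Spata33 (0.635) and Gm3336 (0.593). Without the Day 5 libraries, r was 0.833 for Ednrb and Tek, 0.917 for Bdkrb2 and Map3k6 and 0.906 for Klk1 and S100g, over 24 libraries.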

How the data were processed

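RNA-seq libraries of 32 kidneys were read from a table of counts per gene, which the authors deposited with the FPKM of the same libraries. Per the labels, gene counting used HTSeq and DESeq2, and the notes list GRCm39, whereas the methods of the study name GRCm38. The gene coordinates in the file are those of GRCm38. Strandedness of the counting is not given in the sources used here, so the antisense or overlapping genes of Edn1, Ednra, Ece1 and Klk1 cannot be separated, although their counts summed over the libraries were at most 3.00% of those of the member. The deposited FPKM values equal counts per kilobase over an effective library size that was 0.290 to 1.46 times the total count.

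From the counts, each comparison was fitted on its own groups with edgeR 4.0.16 (R 4.3.3; TMM, filterByExpr, robust quasi-likelihood test), and p-values were adjusted by Benjamini-Hochberg over all genes tested in 17 comparisons of 4 mice per group. The script was tested on simulated data. DESeq2 1.42.0, limma 3.58.1 (voom), other filters and scalings, a replicate block and leaving out each mouse were tried as alternatives. The members and lists were chosen with earlier results of these data known. All 7 members, called genes of the 3 pathway lists, and the 3 genes most like each member (mean log2 CPM of at least 1) are named. Totals of 16502107 to 35961325 counts limit the genes with few reads.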

Additional observations from a re-analysis of the deposited data

Results flagged for a closer look

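Among 56 groups of 4 mice, 5 had 1 mouse that stood apart from the other 3 by Dixon's test, and chance alone flags about 1 group in 20. Ednra was 3.21 CPM in female Day 0 mouse 4, against 1.68 to 1.86 in the others. Ece1 was 89.3 CPM in female Day 2 mouse 1, against 50.4 to 55.0. Bdkrb2 was 2.29 CPM in male Day 2 mouse 4, against 1.08 to 1.20. Klk1 was 4142 CPM in male Day 5 mouse 4, against 1185 to 1601, in a library where 79.7% of the counts came from the mitochondrial genome. Bdkrb1 was 0 CPM in male Day 3 mouse 3, against 0.0386 to 0.0417, which is a difference of 1 count or so.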

How the results depend on the processing

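The number of the members called in each comparison moved with the method. For males at Day 2 against Day 0 it was 0 in the main analysis, 2 by DESeq2, 2 by voom, 1 in 1 fit over all 8 groups and 1 without the 2 Day 0 libraries with the fewest genes, an alternative chosen after seeing the data. For males at Day 3 it was 1, and 2 by DESeq2, 2 by voom and 0 with no count filter, with at least 10 counts in every library or with the replicate block. For males at Day 5 it was 2, and 1 with no filter, with at least 10 counts or without those 2 libraries, and 0 with the block. Between Day 5 and Day 3 in males it was 1, and 2 by DESeq2, by voom and in 1 fit over all groups, and 0 with the block. For females it was 0 at Day 2 (1 by voom), 0 at Day 3 (2 by DESeq2, 4 by voom, 1 with at least 10 counts, 2 in 1 fit over all groups) and 0 at Day 5 (1 by voom, 1 in 1 fit over all groups). Between the sexes it was 0 at Day 0 (1 by voom), 0 at Day 2 (1 by DESeq2, 1 by voom), 1 at Day 3 (2 by DESeq2, 3 by voom, 0 in 1 fit over all groups) and 0 at Day 5. Ednrb is left out of these counts, and with at least 10 counts in every library Bdkrb2 was not tested against Day 0. Without TMM, 36 of 56 group means of CPM stayed within 1 SD of the main value. The causes were not tested.

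Leaving out 1 mouse gave 0 to 1 calls in males and 0 to 1 in females at Day 2, 0 to 2 in either sex at Day 3, 0 to 2 in males at Day 5, 0 to 3 between Day 5 and Day 3 in males, 1 to 2 between the sexes at Day 3 and 0 to 1 at Day 5. Besides the calls gained against Day 0 that are given above, calls gained this way were those of Edn1 between the sexes at Day 5 without male Day 5 mouse 1 (adjusted p = 0.0371), Edn1 and Bdkrb2 between Day 5 and Day 3 in males without that mouse (adjusted p = 0.00735 and 0.0333), Bdkrb2 between the sexes at Day 3 without female Day 3 mouse 2 (adjusted p = 0.00520), and Edn1 there without male Day 3 mouse 1 (adjusted p = 0.0404).

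Small log2 changes turned their sign. Edn1 in Day 2 males became 0.047 by voom, 0.019 with no filter and 0.012 with at least 10 counts, and ranged from -0.13 to 0.14 without 1 mouse. Ece1 in Day 3 males became 0.076, 0.031 and 0.022 with the same settings and ranged from -0.054 to 0.060. Ednra in Day 5 males became 0.0065 with DESeq2 size factors, 0.0011 with at least 10 counts and 0.0035 without the 2 Day 0 libraries, and ranged from -0.41 to 0.21. Ednrb between the sexes at Day 0 became 0.048 by voom. Klk1 ranged from -0.22 to 0.70 in Day 5 males and from -0.11 to 0.67 between the sexes at Day 5, with the lowest values without male Day 5 mouse 4.

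The replicate numbers shared by the groups were not taken as a pairing, since in no comparison did every same-numbered pair correlate above 0.1. Between the sexes at Day 0, 3 of 4 pairs did, with a mean r of 0.281 for the same number and -0.081 for other numbers, and 3 of 4 mice correlated best with their own number. In either sex Day 0 mouse 3 had the fewest genes and mouse 4 the highest mitochondrial share, and what the number stands for is not given. With the replicate block the count of calls was 0 in the male comparisons of Day 3 and Day 5 with Day 0 and of Day 5 with Day 3, 1 between the sexes at Day 3, and it changed no other count.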
